A study of Homo sapiens with 2 samples.

Results

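The BCL2 family members described here are 10 regulators of apoptosis, chosen by name: the guardians BCL2, BCL2L1, BCL2L2 and MCL1, the effectors BAX and BAK1, and the BH3-only genes BID, BAD, BCL2L11 and PMAIP1. All 10 were found among the 44591 genes of the deposited table, and all 10 reached at least 1 CPM (read count scaled to library size) in at least 1 library, as did 14578 genes in all. BCL2 passed that minimum through the MHCC97H library alone. The study profiled poly(A)-selected RNA of MHCC97H, a human hepatocellular carcinoma line labelled with high spontaneous metastatic potential, and of MHCC97L, a line of the same cancer labelled with low potential. Both are labelled WT. The lines were grown in the same serum-containing medium, and no treatment is given for either. There was a single library per line, with 28967153 reads assigned to genes in MHCC97H and 24964246 in MHCC97L. With no replicates, every comparison is one of these libraries. Intervals are 95% counting intervals, which cover counting error only and treat amplified reads as if each were its own molecule.

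BCL2 family proteins decide at the mitochondrial outer membrane whether a cell commits to apoptosis. BAX and BAK1, once activated, form pores through which cytochrome c escapes. The guardians BCL2, BCL-xL (from BCL2L1), BCL-w (from BCL2L2) and MCL1 bind and hold back both the effectors and the BH3-only proteins. BH3-only proteins carry stress signals: BID and BIM (from BCL2L11) can activate the effectors directly, while BAD and NOXA (from PMAIP1) occupy particular guardians, BAD mainly BCL-xL, BCL2 and BCL-w, and NOXA mainly MCL1. Mouse hepatocytes are known to depend on both BCL-xL and MCL1.

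What the members share in sequence is the BH3 helix, which fits into a groove of the guardians. Coding sequences from GENCODE release 29 (GRCh38) were searched for a leucine or methionine codon followed, after 2 further codons, by a small or hydrophobic residue, a glycine or serine, and an aspartate, a pattern written with the family in mind. It occurred exactly 1 time in each of the 10 members, and in 9.6% of 19524 genes with a coding sequence. Stretches of 48 bases around it are shown for the 2 most abundant guardians, the more abundant effector, and BAD, BCL2L11 and PMAIP1. The leucine and aspartate codons are in capitals:
BCL2L1: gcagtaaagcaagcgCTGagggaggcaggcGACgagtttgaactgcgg
MCL1: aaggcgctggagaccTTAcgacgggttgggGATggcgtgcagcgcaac
BAX: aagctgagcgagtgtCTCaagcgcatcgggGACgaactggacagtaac
BAD: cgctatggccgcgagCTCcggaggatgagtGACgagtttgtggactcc
BCL2L11: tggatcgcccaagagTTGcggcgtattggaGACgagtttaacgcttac
PMAIP1: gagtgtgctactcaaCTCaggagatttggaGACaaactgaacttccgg
These genes lie on chromosomes 20 (BCL2L1), 1 (MCL1), 19 (BAX), 11 (BAD), 2 (BCL2L11) and 18 (PMAIP1). The GC content of the stretch was lowest in PMAIP1 (47.9%) and highest, among those shown, in MCL1 (64.6%). Over the whole longest transcript the order differed. PMAIP1 was again lowest at 37.2%, MCL1 stood at 45.1% although its coding sequence had 61.0%, and BAD was highest at 66.3%. This base composition returns below, because the ratio between the libraries moved with it.

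The label of the lines was checked against liver markers. The secreted antiprotease gene SERPINA1 had 5800 CPM in MHCC97H and 8422 CPM in MHCC97L, and the liver transcription factor gene HNF4A had 80.8 and 96.6 CPM in that order of libraries. The 13 hepatocyte markers summed to 5972 CPM in MHCC97H and 8657 CPM in MHCC97L, nearly all of it SERPINA1. ALB, which encodes albumin, had 1.85 CPM in MHCC97H and 5.57 CPM in MHCC97L, and APOA1, TF, TAT and CYP3A4 were under the minimum. Of the 4 oncofetal liver markers, AFP was under the minimum and DLK1 had 0 reads in both libraries. EPCAM had 371 CPM in MHCC97H and 300 CPM in MHCC97L, and GPC3 had 52.0 and 52.5 CPM in that order. Of the 9 hepatocyte markers kept, 8 had a log2 ratio of MHCC97H over MHCC97L below 0 (7 on total counts), with a median of -0.65, or -0.60 after removal of the GC and length trend described below. The lowest were those of AMBP (-1.75), ALB (-1.58) and ASGR1 (-1.25), all at low levels. All 4 epithelial markers were kept. Of the 5 leukocyte markers 2 were kept, CD68 and ITGAM, and the list summed to 10.8 CPM in MHCC97H and 8.63 CPM in MHCC97L, with CD3E at 0 reads in both. None of the 3 endothelial markers was kept. The 5 fibroblast and stellate markers summed to 26.5 CPM in MHCC97H and 34.7 CPM in MHCC97L, and PDGFRB among them had the lowest log2 ratio (-1.12). The part of these cells' RNA in the results below was not tested.

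Among the guardians, BCL2L1 was by far the most abundant and BCL2 was barely detected. Per kilobase of annotated exon, BCL2L1 stood at 114 CPM in MHCC97H and 126 CPM in MHCC97L, above 97.6% and 97.3% of the kept genes. MCL1, whose short-lived protein gives cells rapid control over survival, followed at 48.7 CPM per kilobase in MHCC97H and 34.5 CPM per kilobase in MHCC97L. BCL2L2 stood at 10.0 CPM per kilobase in MHCC97H and 7.44 CPM per kilobase in MHCC97L. BCL2, the founding member, had 38 reads in MHCC97H and 16 in MHCC97L, or 0.105 and 0.0578 CPM per kilobase, and only 0.822% and 0.259% of the kept genes were lower in those libraries.

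**Figure D1:**
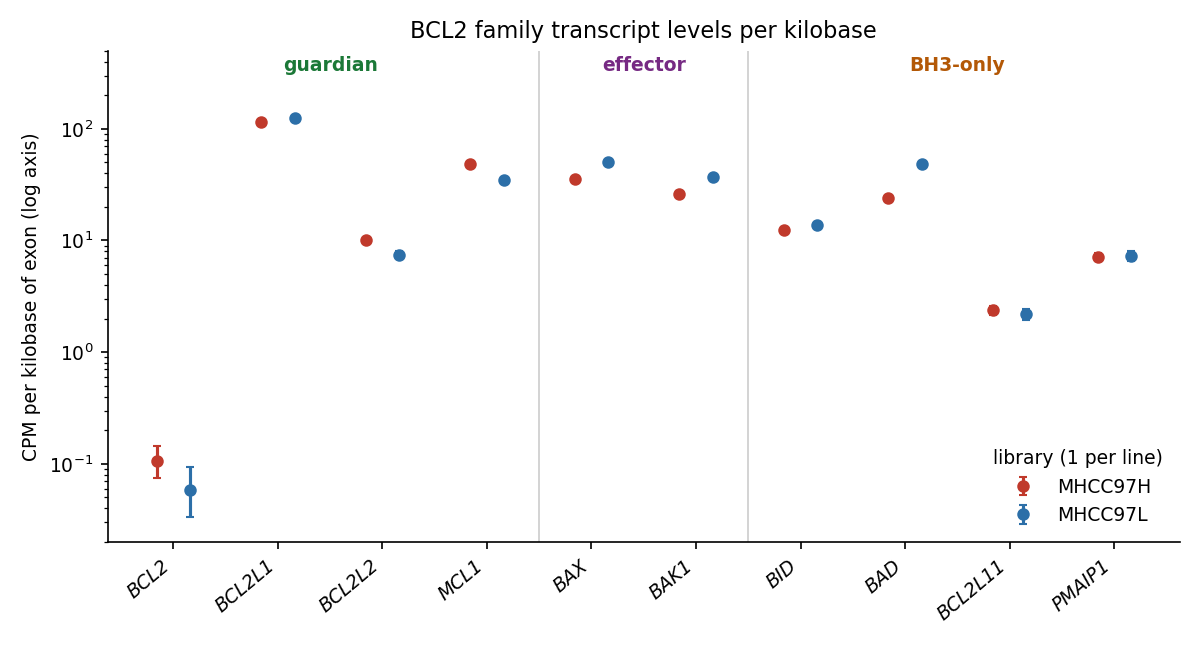
Level of each member in CPM per kilobase of exon (log axis) in the MHCC97H and MHCC97L libraries, 1 per line, with 95% counting intervals as bars. BCL2L1 is highest at 114 and 126, and BCL2 lowest at 0.105 and 0.0578, in MHCC97H and MHCC97L.

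As shares of the summed guardian level per kilobase, BCL2L1 made up 66.0% in MHCC97H and 75.0% in MHCC97L. MCL1 made up 28.1% in MHCC97H and 20.5% in MHCC97L. BCL2L2 made up 5.79% in MHCC97H and 4.42% in MHCC97L, and the share of BCL2 was 0.061% in MHCC97H and 0.034% in MHCC97L. BCL2L1 and MCL1, with all splice forms counted together, made up most of the guardian level in either library, and the MCL1 share was larger in MHCC97H. In reads, MCL1 took 33.5% of the guardian total in MHCC97H (95% exact interval 32.9 to 34.2) and 25.1% in MHCC97L (24.4 to 25.9).

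Both effectors were expressed well. BAX stood at 35.8 CPM per kilobase in MHCC97H and 49.98 CPM per kilobase in MHCC97L, and BAK1 at 26.2 and 37.0 CPM per kilobase in the same order. Their proportion was nearly the same in the libraries. BAX made up 57.8% of the effector level per kilobase in MHCC97H and 57.4% in MHCC97L. That share depends on the length used, since the longest BAX transcript spans 1.36 kb of the 2.59 kb of annotated exon. With longest-transcript lengths it was 72.3% in MHCC97H and 72.0% in MHCC97L.

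Among the BH3-only genes, BAD was the most abundant, at 23.8 CPM per kilobase in MHCC97H and 48.5 CPM per kilobase in MHCC97L. BID, whose protein is cut by caspase-8 and links death receptors to mitochondria, stood at 12.5 CPM per kilobase in MHCC97H and 13.8 CPM per kilobase in MHCC97L. PMAIP1, which encodes NOXA, stood at 7.12 CPM per kilobase in MHCC97H and 7.32 CPM per kilobase in MHCC97L. BCL2L11, which encodes BIM, was the least abundant, at 2.37 CPM per kilobase in MHCC97H and 2.18 CPM per kilobase in MHCC97L. BAD made up 52.0% of this group per kilobase in MHCC97H and 67.6% in MHCC97L.

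Ordered by level per kilobase, MCL1 ranked 2 of 10 in MHCC97H and 5 of 10 in MHCC97L, while BAD ranked 5 in MHCC97H and 3 in MHCC97L. BCL2L1 ranked first and BID, BCL2L2, PMAIP1, BCL2L11 and BCL2 held the last 5 places in that order in both libraries. Counting intervals overlapped between neighbours in this order for BAK1 and BAD in MHCC97H. In MHCC97L they overlapped for BAX and BAD, for BAK1 and MCL1, and for BCL2L2 and PMAIP1. With longest-transcript lengths MCL1 ranked 3 in MHCC97H and 4 in MHCC97L, and BAD 4 and 3.

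Between the libraries, scaled by the trimmed mean of M-values (TMM), most differences were modest. The ratios of MCL1 and BCL2L2 were above 1, those of both effectors and of BAD well below it, and that of BCL2L1 near it. MCL1 had 6545 reads (213 CPM) in MHCC97H and 3551 reads (151 CPM) in MHCC97L. Its level in MHCC97H was 1.41-fold that in MHCC97L (95% counting interval 1.35 to 1.47). BCL2L2 had 1292 reads (42.0 CPM) in MHCC97H and 733 reads (31.2 CPM) in MHCC97L, a 1.35-fold ratio (1.23 to 1.48). BCL2 was 1.80-fold (0.989 to 3.49), and its interval included equal expression. BCL2L1 went slightly the other way, with 11653 reads (379 CPM) in MHCC97H and 9833 reads (418 CPM) in MHCC97L, a ratio of 0.907 (0.882 to 0.931). Summed over the 4 guardians, the level was 635 CPM in MHCC97H and 601 CPM in MHCC97L, a ratio of 1.06 (1.03 to 1.08). In bulk RNA, fewer cells of a kind and less RNA per cell cannot be told apart.

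The effectors had almost the same ratio. BAX had 2851 reads (92.7 CPM) in MHCC97H and 3041 reads (129 CPM) in MHCC97L, a ratio of 0.717 (0.681 to 0.755). BAK1 had 1783 reads (58.0 CPM) in MHCC97H and 1927 reads (81.9 CPM) in MHCC97L, a ratio of 0.708 (0.663 to 0.755). Summed, the effectors stood at 151 CPM in MHCC97H and 211 CPM in MHCC97L.

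The BH3-only genes differed among themselves. BAD had 1252 reads (40.7 CPM) in MHCC97H and 1948 reads (82.8 CPM) in MHCC97L, a ratio of 0.492 (0.458 to 0.528), the lowest of the 10. The other 3 lay closer to equal expression. BID had 1707 reads (55.5 CPM) in MHCC97H and 1442 reads (61.3 CPM) in MHCC97L, a ratio of 0.906 (0.844 to 0.972). BCL2L11 had 486 reads (15.8 CPM) in MHCC97H and 341 reads (14.5 CPM) in MHCC97L, a ratio of 1.09 (0.947 to 1.26). PMAIP1 had 489 reads (15.9 CPM) in MHCC97H and 385 reads (16.4 CPM) in MHCC97L, a ratio of 0.972 (0.848 to 1.11). The intervals of BCL2L11 and PMAIP1 included equal expression.

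A gene was said to meet the size rule when its log2 ratio was at least 1 in either direction and its interval excluded equal expression. By this rule 0 of the 10 members were higher in MHCC97H, against 7.06% of all kept genes, and 1, BAD, was lower, against 4.65%. With the filter at 5 CPM, 225 of 11321 kept genes were lower, beside BAD alone among 9 members. The lower share thus depends on the filter. A single member is too few to set the family apart in either direction. BAD lay just past the threshold with a log2 ratio of -1.02 (-1.13 to -0.92), and 4.35% of kept genes had a lower one. It stood at -0.98 and did not meet the rule when TMM used all genes in the table, and at -0.85 on total counts. Total counts moved every log2 ratio up by 0.17, and BCL2 (1.01) then met the rule as higher. On that scale the ratios of BCL2L1 (0.03), BID (0.03) and PMAIP1 (0.13) lay above 0, while those of the other 7 members kept their sign. The median log2 ratio of the members was -0.09, and that of all kept genes 0.03. On total counts these were 0.08 and 0.20. At a 1.5-fold threshold BAD was again the single member called, against 19.3% of kept genes higher and 13.8% lower.

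**Figure D2:**
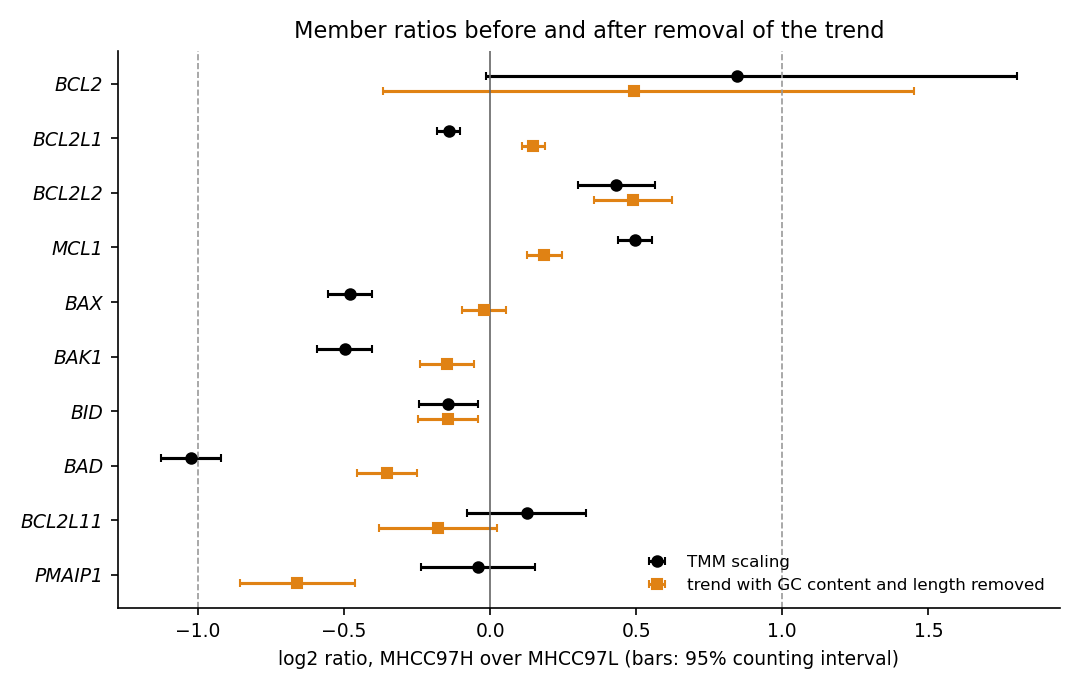
Log2 ratio of each member, MHCC97H over MHCC97L, with 95% counting intervals, before (circles) and after (squares) removal of the GC and length trend. Dashed lines mark 2-fold, and BAD alone passes one, at -1.02 before and -0.35 after removal.

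The members' ratios tended to fall as the GC content of their transcripts rose. Across the 13876 kept genes with an annotated transcript (95.2%), the Spearman correlation of the log2 ratio with GC content was -0.63, and across the 10 members it was -0.78, both as descriptions over genes that share these libraries. The trend at each member's GC content and length was therefore computed and subtracted. The trend alone gave -0.67 for BAD, -0.46 for BAX, -0.35 for BAK1 and -0.29 for BCL2L1, and 0.31 for MCL1 and 0.35 for BCL2. The trend had the same sign as the ratio in 7 of 10 members, and its removal made the absolute log2 ratio smaller in 5 of 10. Whether base composition accounts for the ratios was not tested.

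With the trend removed, no member met the rule, against 2.41% of genes higher and 3.7% lower. BAD stood at -0.35 (-0.46 to -0.25) and BAK1 at -0.15 (-0.24 to -0.05). BAX, at -0.02 (-0.10 to 0.05), no longer differed beyond its counting interval. With the GC trend alone removed it stood at -0.18, so this depends on the length step. The guardians all lay above 0, MCL1 at 0.19 (0.13 to 0.24), BCL2L1 at 0.15 (0.11 to 0.19), BCL2L2 at 0.49 (0.36 to 0.62) and BCL2 at 0.49 (-0.37 to 1.45). The ratio of BCL2L2 moved little, since the trend was -0.06 at its composition.

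PMAIP1 departed furthest from the trend. Its transcript was the poorest in GC among the members, where the trend stood at 0.62, and its own ratio was -0.04. The difference of -0.66 (-0.86 to -0.46) was the lowest of the 10, and 8.65% of genes had a lower one. The other BH3-only genes were also below 0 after removal, BID at -0.14 (-0.25 to -0.04) and BCL2L11 at -0.18 (-0.38 to 0.02).

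**Figure D3:**
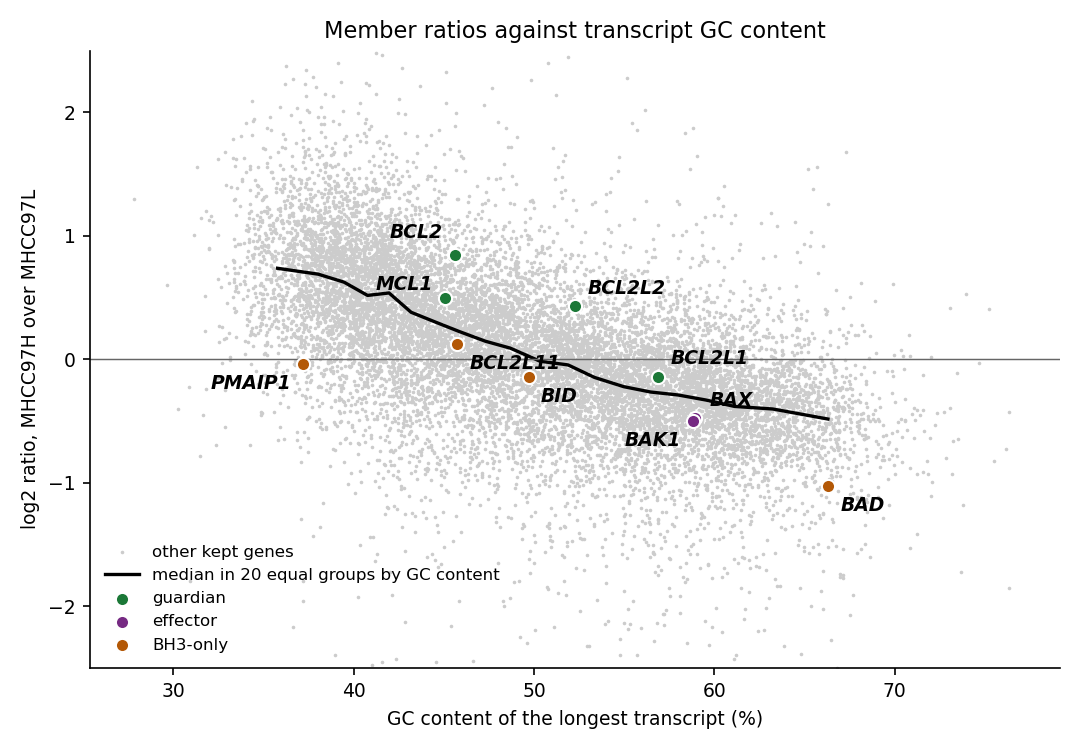
Log2 ratio of MHCC97H over MHCC97L against the GC content of the longest transcript, for the members (coloured by role) and 13876 kept genes (grey, 64 of them beyond the axis), with the median in 20 equal groups by GC content as a line. BAD lies at 66.3% GC and -1.02, and PMAIP1 at 37.2% and -0.04, well under the line.

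Balances between members within a library need no scaling. Of 15 such balances, 14 differed between the libraries beyond their counting interval as counted, and 11 did with the trend removed. The balances reuse the same members, and no share was computed for balances between other genes. These counts therefore do not show whether the family differs from other genes. Reads of the effectors over those of the guardians stood at 0.237 in MHCC97H and 0.352 in MHCC97L, so the balance in MHCC97H was 0.675 of that in MHCC97L (0.645 to 0.707). Reads of the BH3-only genes over those of the guardians stood at 0.201 in MHCC97H and 0.291 in MHCC97L, a ratio of 0.692 (0.659 to 0.727). With the trend removed these were 0.843 (0.805 to 0.882) and 0.725 (0.690 to 0.761), still below 1. BAD made up 31.8% of the BH3-only reads in MHCC97H and 47.3% in MHCC97L. The BH3-only balance as counted therefore rests in large part on BAD and does not describe each member of that group.

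In pairs of an effector and a guardian, the guardian weighed more in MHCC97H. BAX over MCL1 was 0.436 in reads in MHCC97H and 0.856 in MHCC97L, a ratio of 0.509 (0.476 to 0.543), which became 0.867 (0.811 to 0.926) with the trend removed. BAK1 over MCL1 gave 0.502 (0.465 to 0.542), or 0.794 (0.735 to 0.857). BAX over BCL2L1 gave 0.791 (0.746 to 0.838), or 0.889 (0.839 to 0.943), and BAK1 over BCL2L1 gave 0.781 (0.728 to 0.838), or 0.814 (0.759 to 0.874). These 4 balances lay below 1 both ways. BAX over BCL2, a ratio often used in the field, gave 0.395 (0.205 to 0.727) but rested on the few BCL2 reads and had an interval that included 1 with the trend removed (0.692, 0.360 to 1.27).

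Pairs of a BH3-only gene with the guardian it binds were also lower in MHCC97H. PMAIP1 over MCL1 stood at 0.075 in MHCC97H and 0.108 in MHCC97L, a ratio of 0.689 (0.598 to 0.795), or 0.556 (0.483 to 0.641) with the trend removed. BAD over BCL2L1 stood at 0.107 in MHCC97H and 0.198 in MHCC97L, a ratio of 0.542 (0.502 to 0.585), or 0.707 (0.655 to 0.763). BCL2L11 over MCL1 gave 0.773 (0.668 to 0.896), or 0.777 (0.671 to 0.900). By contrast BCL2L11 over BCL2L1 was above 1 as counted, at 1.20 (1.04 to 1.39), and below it with the trend removed, at 0.797 (0.691 to 0.921).

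Within the guardians, MCL1 over BCL2L1 stood at 0.562 in MHCC97H and 0.361 in MHCC97L, a ratio of 1.56 (1.48 to 1.63), or 1.03 (0.977 to 1.08) with the trend removed. BCL2 over BCL2L1 gave 2.00 (1.09 to 3.85), or 1.28 (0.699 to 2.47). The effectors kept their proportion, with BAX over BAK1 at 1.599 in MHCC97H and 1.58 in MHCC97L, a ratio of 1.01 (0.932 to 1.10), or 1.09 (1.005 to 1.19) with the trend removed. BID over BAX gave 1.26 (1.16 to 1.38) as counted and 0.918 (0.841 to 1.002) with the trend removed.

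**Figure D4:**
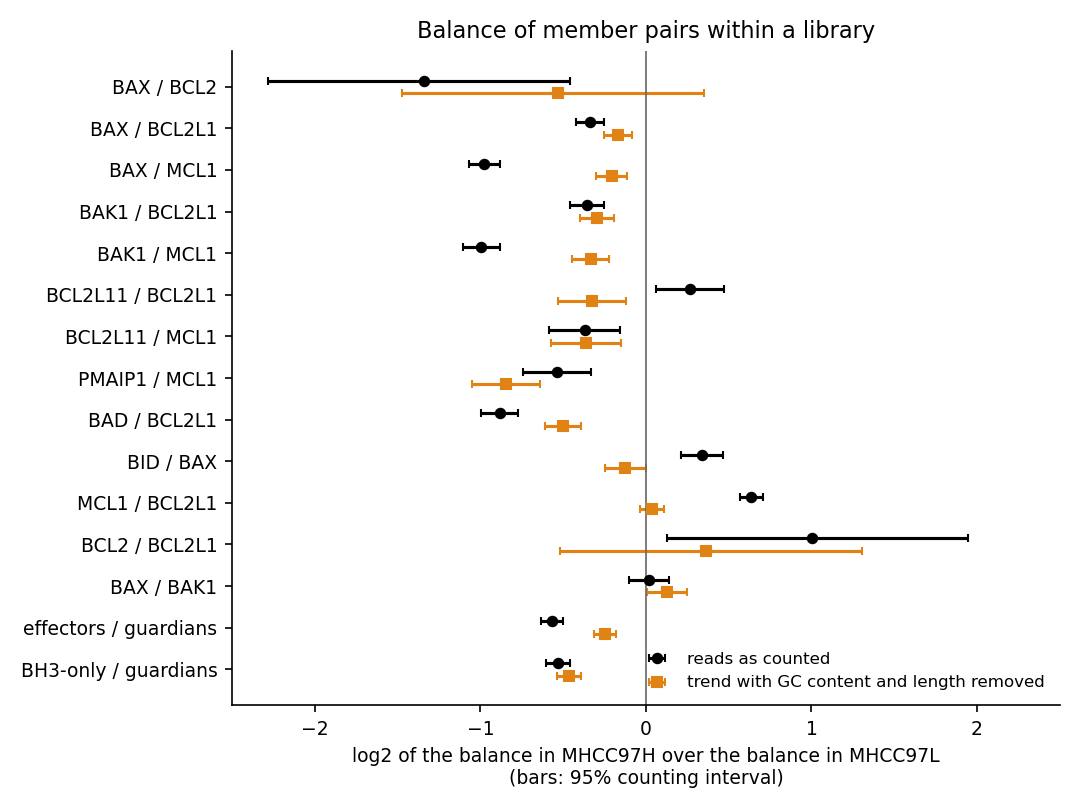
Log2 of each balance between members in MHCC97H over the same balance in MHCC97L, with 95% counting intervals, as counted (circles) and after removal of the GC and length trend (squares). Effectors over guardians and BH3-only genes over guardians lie below 0 both ways, and BAX over BAK1 is close to 0.

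The counts of several members are not certain to be their own, because exons of other genes overlap theirs and no strand setting is given. In GENCODE 29, 43.0% of the BCL2L1 exon length is covered on the opposite strand by the noncoding gene ABALON, which itself was counted at 143 CPM in MHCC97H and 149 CPM in MHCC97L. GPR137 covers 23.7% of the exon length of BAD, and its log2 ratio was -0.77 (-0.87 to -0.66). The same-strand readthrough gene BCL2L2-PABPN1 shares 19.4% of the BCL2L2 exon length and held more reads than BCL2L2, 4050 in MHCC97H and 3713 in MHCC97L, at a log2 ratio of -0.26 (-0.33 to -0.20). Summed with it, BCL2L2 stood at -0.12 (-0.18 to -0.06) as counted. How reads in shared exons were assigned is not given, so the sum may hold some reads under both genes. It also holds reads from the rest of BCL2L2-PABPN1, since the shared stretch is 52.5% of that gene's exon length. The positive ratio was seen for the reads assigned to BCL2L2 alone, and the sum does not show which way BCL2L2 itself goes. PABPN1 itself stood at -0.30 (-0.36 to -0.24). With the trend removed BCL2L2-PABPN1 stood at 0.16, and the sum was not computed on that scale. MIR4435-2HG covers 10.9% of the exon length of BCL2L11. No overlap was found for BCL2, BAX, BID and PMAIP1, and those of MCL1 and BAK1 covered 0.046% and 4.11% of exon length. Gene-level counts also do not separate splice forms, such as the long and short forms of BCL2L1 and MCL1 that act in opposite ways.

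The genes next to each member were compared with it, using the 5 nearest kept genes on each side in RefSeq order. Around BAD all 10 neighbours had a ratio below 0, with a median of -0.53 and a range of -0.99 to -0.08. They are not all separate measures. GPR137 overlaps the exons of BAD, and TEX40 (-0.52) and KCNK4-TEX40 (-0.51), with near-equal levels, may share reads. Around BAX 9 of 10 were below 0 (median -0.42), and around BAK1 8 of 10 (median -0.35). Around BCL2 9 of 10 were above 0 (median 0.47), and SERPINB8 (1.07) met the rule. PMAIP1 shares 5 of those neighbours, and its window had 8 of 10 above 0 (median 0.30) while PMAIP1 itself stood at -0.04. Medians of such windows around all kept genes ran from -0.526 to 0.78 in their central 95%. The median around BAD (-0.527) lay just below that range, with 2.43% of windows lower.

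With the trend removed the window medians of BAD (-0.08), BAX (-0.03), BCL2 (-0.03) and PMAIP1 (0.02) lay near 0. That of BAK1 was -0.20, with 10.5% of windows lower, and that of BCL2L2 was -0.12, against -0.13 before removal. The window around BCL2L11 lay outside the central 95% after removal. There 9 of 10 neighbours were above 0 before removal (median 0.66) and 9 of 10 after it (median 0.48), against a central 95% of -0.33 to 0.30. Before removal the spindle checkpoint kinase gene BUB1 stood at 1.46, ANAPC1, a subunit of the anaphase-promoting complex, at 1.09, and ZC3H8 at 1.11. With the trend removed these 3 genes stood at 0.99, 0.72 and 0.44 in that order. BCL2L11 itself stood at 0.12, or -0.18 with the trend removed. TPX2, a spindle gene beside BCL2L1, stood at 1.06, or 0.85 with the trend removed, and the protease gene CTSK beside MCL1 at 1.08, or 0.98. Beside BCL2L2, RNF212B stood at -1.26, or -1.56 with the trend removed. Beside BID, CECR6 and PI4KAP1 stood at -1.15 and -1.13 before removal, and PI4KAP1 at -0.83 after it. CTSK, RNF212B and PI4KAP1 were all near 1 CPM.

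Of 11 other BCL2 family genes, 7 were kept and none met the size rule. All 7 had a log2 ratio below 0, with a median of -0.33. On total counts 6 did, and with the trend removed 5 did, with medians of -0.16 and -0.21. BOK, an effector-like member, was the most abundant at 89.1 CPM in MHCC97H and 110 CPM in MHCC97L, a log2 ratio of -0.31 (-0.39 to -0.23). BCL2L13, a mitochondrial member also linked to mitophagy, stood at -0.14 (-0.25 to -0.04). The lowest ratios, singled out after the values were seen, were those of further BH3-only genes. BMF had 32.1 CPM in MHCC97H and 59.5 CPM in MHCC97L, at -0.89 (-1.01 to -0.77), or -0.74 with the trend removed. BBC3, which encodes PUMA, had 26.7 CPM in MHCC97H and 46.7 CPM in MHCC97L, at -0.81 (-0.94 to -0.67), or -0.17. BIK stood at -0.68 (-0.89 to -0.47), or -0.21. HRK had 0 reads in both libraries, which allows up to 0.0976 CPM in MHCC97H and 0.128 CPM in MHCC97L. The guardian gene BCL2A1 had 0 reads in MHCC97H and 1 in MHCC97L, and BCL2L10 had 1 in MHCC97H and 4 in MHCC97L.

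Downstream of the pores, 13 genes of the apoptosome, the caspases and released mitochondrial factors had a median log2 ratio of 0.29, and none met the rule. CYCS, which encodes cytochrome c, stood at 100 CPM in MHCC97H and 50.9 CPM in MHCC97L, just under the threshold at 0.98 (0.88 to 1.08), or 0.44 with the trend removed, and past it on total counts and with TMM over all genes. AIFM1, a flavoprotein released from mitochondria, stood at 0.19. Of 6 kept inhibitor of apoptosis genes, 2 were higher and the median was 0.47. XIAP, a direct caspase inhibitor, stood at 51.9 CPM in MHCC97H and 25.9 CPM in MHCC97L, at 1.00 (0.87 to 1.14). BIRC6 stood at 1.09 (0.95 to 1.23). Neither met the rule with the trend removed (0.26 and 0.53), and XIAP no longer met it under DESeq2 scaling. The medians of these lists with the trend removed were both 0.03.

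Upstream of BID, 13 kept death receptor genes had a median of 0.04, with TNFRSF1A at -0.21 and FADD at -0.24, and none met the rule. Of 15 kept genes of MCL1 and BIM turnover, FBXO45 was higher at 1.01 (0.81 to 1.21), or 0.49 with the trend removed, and missed the rule under DESeq2 scaling. HUWE1, a ubiquitin ligase that targets MCL1 for degradation, stood at 0.39 and CDC20 at 0.47. The list median was 0.39, or 0.03 with the trend removed. MARCH5 was also on this list, but its symbol was not found. An entry spelled 5-Mar, the form such a symbol takes as a date, stood at 0.41 and was left out of the list. The 17 genes of BAD phosphorylation and the proteins that hold phosphorylated BAD in the cytosol had a median of 0.23, with none meeting the rule. YWHAE and YWHAZ, which encode such holding proteins, stood at 0.66 and 0.63. In this list 10 of 17 genes were above 0 before the trend was removed and 16 of 17 after it (median 0.20), against 7491 of 14578 and 6955 of 13876 of all genes.

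For 9 mitochondrial outer membrane partners the median was -0.34 as counted and -0.01 after removal, with BCAP31 at -0.34 and MTCH1 at -0.38. Among 10 kept transcription factors of BH3-only genes the median was -0.21, or -0.08, with ATF4 at -0.45. MYC stood at 235 CPM in MHCC97H and 132 CPM in MHCC97L, at 0.83 (0.77 to 0.89), and was higher by the rule with the trend removed (1.03). The 16 kept BCL2 binding regulators and BH3-like genes had a median of 0.20, or 0.01, with TPT1 at -0.40 and TMBIM6 at -0.12. BNIP2 (-0.38) met the rule as lower with the trend removed (-1.14). Over all 9 lists, 3 of 106 kept genes met the rule as higher and 0 as lower, beside background shares of 7.06% and 4.65%.

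**Figure D5:**
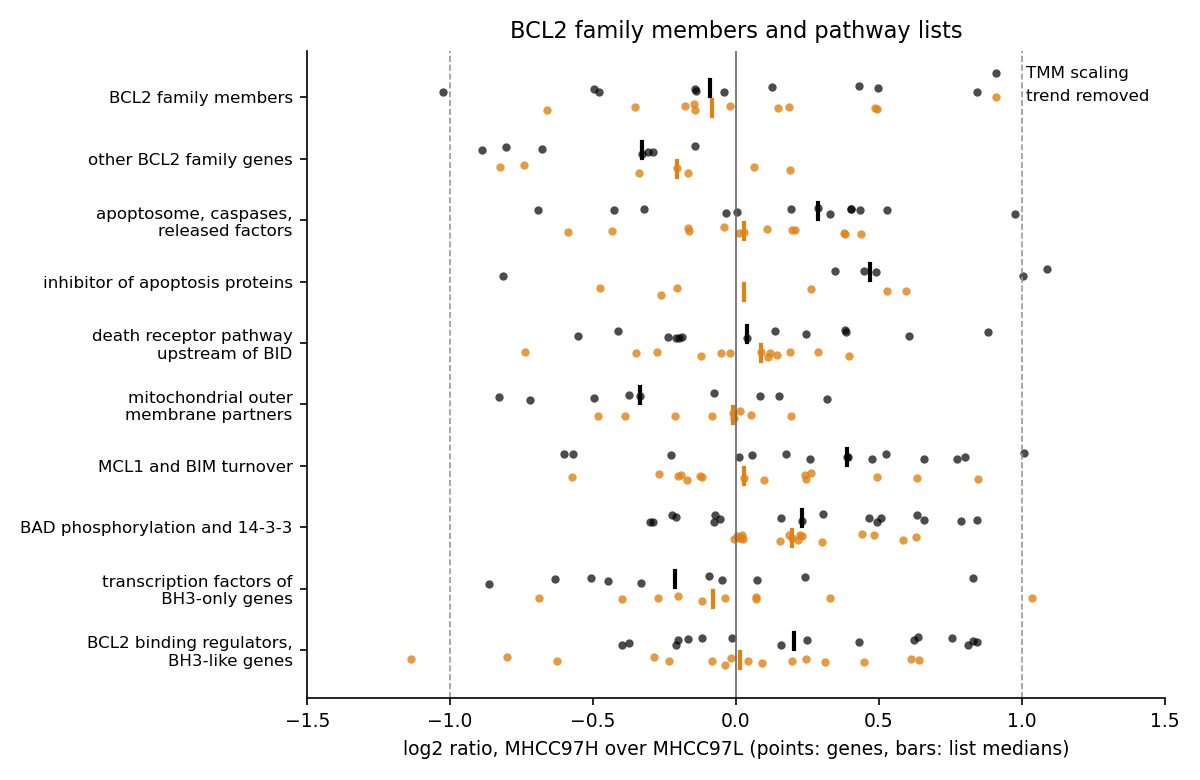
Log2 ratio of MHCC97H over MHCC97L for the kept genes of the members' list and 9 pathway lists, before (black) and after (orange) removal of the GC and length trend, with list medians as bars and dashed lines at 2-fold. List medians lie between -0.34 and 0.47 before removal and between -0.21 and 0.20 after it.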

How the data were processed

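The deposited table holds raw read counts per gene for 1 library of each line, assigned through the labels' descriptions, and the counts were used as deposited. Per the labels' protocols, RNA was extracted with Trizol and libraries were made after poly(A) isolation with an NEBNext Ultra RNA kit. The tools named per the submitters' processing notes are HISAT2 2.1.0, HTSeq 0.11.2 and bcl2fastq, with the build hg19 (annotation and strand setting: not given in the sources used here). Genes with at least 1 CPM of total counts in at least 1 library were kept, without scaling factors. TMM factors (edgeR 4.0.16, R 4.3.3) were 1.06 for MHCC97H and 0.942 for MHCC97L, and printed CPM values (counts per 1e6 reads) are divided by them. Log2 ratios used a prior count of 0.5, and intervals are exact 95% Clopper-Pearson intervals of the split of a gene's reads. Balances have exact conditional intervals. Without replicates, no test was run.

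Lengths, GC content and overlaps came from GENCODE release 29 and gene order from RefSeq, both on GRCh38, so no coordinates are given. Levels per kilobase used the union of annotated exons. The trend was a lowess with span 0.2 on GC content of the longest transcript, then on log2 length. The members and lists were chosen with earlier results of these data known. Named genes were all members, in each pathway list the genes meeting the rule (at most 4, from 5 CPM) or, with fewer than 2, the 2 most abundant, and up to 3 neighbours per member meeting the rule. Marker genes, BMF, BBC3, BIK, HRK, BCL2A1, BCL2L10, BNIP2 and the entry 5-Mar lie outside this choice and were named with their values seen. On simulated counts from the libraries' means, 0 of 50 genes changed 1.5-fold and 50 of 50 changed 2.5-fold met the rule, as did 19 of 14111 unchanged genes. The simulated counts held Poisson counting error only, without variation between cultures or a GC trend, and changes were planted from 5 CPM. They therefore give no error rate for the real libraries, and a 1.5-fold change lies under the 2-fold threshold by design. Python 3.11.15, scipy 1.17.1, statsmodels 0.14.6 and DESeq2 1.42.0 (scaling only) were used.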

Additional observations from a re-analysis of the deposited data

How the results depend on the processing

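The number of members meeting the rule was 0 higher and 1 lower. On total counts it was 1 higher (BCL2) and 0 lower, and with TMM over all genes, an alternative chosen after the data were seen, or with the GC trend or the GC and length trend removed, it was 0 lower. Of all kept genes, 1029 were higher and 678 lower. The higher count became 1657 on total counts, 2813 at 1.5-fold, 315 with the GC trend removed and 335 with GC and length removed. The lower count became 1443 without a filter, 225 at 5 CPM and 2009 at 1.5-fold. The share of higher among called genes was 60.3%, and 77.9% on total counts, 75.6% at 5 CPM, 49.7% without a filter, 35.4% with the GC trend removed and 39.5% with GC and length removed. In the pathway lists the 3 higher became 8 on total counts, 1 under DESeq2 scaling, 20 at 1.5-fold, 0 with the GC trend removed and 1 with GC and length removed, and the 0 lower became 1 without a filter, 10 at 1.5-fold and 1 with either trend removed. Removal of GC and length reversed the balances of BCL2L11 over BCL2L1 (log2 ratio -0.33) and BID over BAX (-0.12). The causes were not tested. The log2 ratio left its counting interval for 7 of 10 members on total counts, 7 with the GC trend removed and 7 with GC and length removed, for 1 with TMM over all genes, and for BCL2L2 when summed with its readthrough gene. Widening the intervals by a coefficient of variation of 0.2 changed no member's call by the 2-fold rule. That says nothing of the smaller ratios, which the rule does not call at any interval width. Their printed intervals hold counting error only. Neighbour values for BID could not be had with 10 genes on each side or with the trend removed, since too few genes remain on its side of the chromosome end. BCL2 fell under the filter at 5 CPM. No paired analysis was possible because each line has 1 library, and leaving out a library leaves no comparison. With 38 and 16 reads, depth limits what can be said of BCL2.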
